A study of Mus musculus with 2 samples.

Results

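Neutrophil effector and identity genes were followed across 11 cell clusters of tumors grown from mouse dysplastic stem cells. The set comprised 8 genes of the 18319 named in the table analysed, namely S100a8, S100a9, Csf3r, Retnlg, G0s2, Acod1, Chil1 and Hdc. They were chosen by name, with earlier results of the same table known, so their place in cluster 10 is given as a description and carries no test. All 8 were found, and they made up 13 of the 46855 pairs of a gene and a cluster that the table lists.

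Single cells came from 2 tumors, a cystic adenocarcinoma taken 10 weeks and a tubular adenocarcinoma taken 13 weeks after injection of the cells named DP-DSC. Both grew in female nude mice of the NuJ strain, which lack a thymus and most T cells but keep neutrophils, macrophages, mast cells and NK cells. The labels give the cells of both libraries as tumor cells, name no other allele or agent, and do not say whether animals were pooled. There was 1 library per tumor type, made by capture of single cells with barcoded beads in droplets (inDrop), and the table of the authors' comparisons names clusters but not tumors. Cystic and tubular tumors could therefore not be compared, and values below come without an error between animals. Neither counts per cell nor cells per cluster could be had from the sources used here, and the depth behind each value is unknown.

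Neutrophils are short-lived granulocytes that leave the bone marrow under the cytokine G-CSF and enter tissue along gradients of chemokines. They kill microbes with granule proteases and with oxidants, and in tumors they also release cytokines, proteases and calcium-binding alarm proteins. Of the 8 genes, S100a8 and S100a9 encode the subunits of calprotectin, a calcium- and zinc-binding alarm protein that is among the most abundant proteins of the neutrophil cytosol. Csf3r is the G-CSF receptor. Retnlg encodes resistin-like gamma and Chil1 a chitinase-like lectin without enzyme activity, both secreted. G0s2 inhibits adipose triglyceride lipase, Acod1 makes itaconate from an intermediate of the tricarboxylic acid cycle, and Hdc makes histamine from histidine. Several of these genes are known in other cells too: activated macrophages use Acod1, mast cells and the enterochromaffin-like cells of the stomach use Hdc, and adipocytes use G0s2.

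The genes lie on 6 chromosomes (GENCODE M21 on GRCm38, the build called mm10). S100a8 (chr3:90668978-90670035, plus strand) and S100a9 (chr3:90692632-90695721, minus strand) are neighbours, 22.6 kb apart. Csf3r is at chr4:126024550-126044440, Retnlg at chr16:48872621-48874496, Acod1 at chr14:103046977-103056573 and Chil1 at chr1:134182176-134190181, all on the plus strand. G0s2 at chr1:193272161-193273217 and Hdc at chr2:126593667-126619299 are on the minus strand. All 8 are annotated as protein-coding.

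Because the 8 genes were listed together in cluster 10, their promoters are shown for 5 of them: the neighbouring S100a pair, the receptor Csf3r and the enzymes Acod1 and Hdc. The windows are RefSeq's on GRCm38.p6, read 5′ to 3′ on the strand of the gene, from 250 bases before the RefSeq start site up to the last base before the start site or the first annotated exon of the gene. They span chr3:90668821-90668977 (plus), chr3:90695722-90695971 (minus), chr4:126024409-126024549 (plus), chr14:103046762-103046976 (plus) and chr2:126618679-126618928 (minus), and the Hdc window lies inside an intron of a longer annotated Hdc transcript. Capitals mark matches on either strand to AGGAAG, the core bound by the myeloid factor PU.1, whose reverse is CTTCCT, and to GGGANTT, a part of the NF-kB site.
S100a8: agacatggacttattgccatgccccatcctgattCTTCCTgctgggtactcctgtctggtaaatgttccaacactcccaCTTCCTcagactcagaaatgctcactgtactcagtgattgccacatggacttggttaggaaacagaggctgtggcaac
S100a9: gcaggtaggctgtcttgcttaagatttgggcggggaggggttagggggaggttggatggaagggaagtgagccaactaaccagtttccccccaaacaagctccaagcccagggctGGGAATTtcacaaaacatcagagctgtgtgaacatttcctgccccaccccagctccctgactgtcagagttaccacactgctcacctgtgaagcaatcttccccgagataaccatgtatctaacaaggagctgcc
Csf3r: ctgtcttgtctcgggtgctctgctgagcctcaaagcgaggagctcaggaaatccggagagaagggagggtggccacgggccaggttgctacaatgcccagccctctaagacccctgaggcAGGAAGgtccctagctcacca
Acod1: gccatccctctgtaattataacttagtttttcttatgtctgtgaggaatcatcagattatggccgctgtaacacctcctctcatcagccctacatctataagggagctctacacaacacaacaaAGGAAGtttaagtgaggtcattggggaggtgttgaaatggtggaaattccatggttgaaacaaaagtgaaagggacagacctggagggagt
Hdc: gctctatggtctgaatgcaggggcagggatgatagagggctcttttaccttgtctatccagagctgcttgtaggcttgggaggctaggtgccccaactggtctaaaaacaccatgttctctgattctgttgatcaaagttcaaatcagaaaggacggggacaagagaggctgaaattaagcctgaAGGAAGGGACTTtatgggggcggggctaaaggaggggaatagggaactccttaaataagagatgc

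The PU.1 core stood in 6 of the 8 promoters, those of S100a8, Csf3r, G0s2, Acod1, Chil1 and Hdc, when the whole RefSeq window of 300 bases was searched on both strands. It is a common string, present in 35.4% of all 32851 promoters of that length. Csf3r held 4 copies, of which 1 lies in the stretch shown, and S100a8 held 2. In Hdc the PU.1 core and the NF-kB part overlap by the last G of AGGAAG. The NF-kB part was found in 3 of 8 promoters (S100a9, Chil1 and Hdc) and in 16.5% of all. TATAAA, the string of the TATA box, was found in 3 of 8 (S100a8, S100a9 and Acod1) and in 13.6% of all, at any position. It begins 30 bases before the start site in S100a8 and 28 before it in Acod1, but at the start site itself in S100a9. The C/EBP core TTGCAA and the AP-1 site TGANTCA were in 0 of 8, against 6.23% and 7.81% of all promoters. Retnlg had no match to any of the 5 motifs.

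Below, listed means that the table holds the gene under a cluster, which required a linear fold above 1.5, and raised means a fold of 2 or more together with a deposited p of 0.05 or less. What each fold is relative to is not stated in the table. A fold compares cells of one cluster with other cells and is no measure of how much RNA a gene makes, so folds are not compared as levels between genes. A gene that is not listed in a cluster has no value there, and may have been equal, lower or weakly higher. The deposited p compares cells, which are not replicates, in clusters drawn from the same expression values.

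All 8 genes were raised in cluster 10 and none was raised in any of the other 10 clusters. Of all named genes, 4.90% were raised in cluster 10, a share from which nothing is read here because the genes were chosen with that cluster in view. Their folds there ran from 7.22 to 253.0 per the authors' deposited table, with a median of 34.9, beside a median of 3.92 over the 3466 genes listed in cluster 10 and 11.1 over the 897 raised ones. Outside cluster 10, 5 of the 8 were listed in cluster 2 and none in the remaining 9 clusters. The shares of all named genes listed in clusters 1, 3, 5, 6, 7, 9 and 11 were, in that order, 6.34%, 29.9%, 20.6%, 36.4%, 12.1%, 38.9% and 25.7%, beside 18.9% in cluster 10, so that cluster 9 listed the most genes and none of the 8. Of the 88 possible pairs of a gene and a cluster, 75 had no value.

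**Figure D1:**
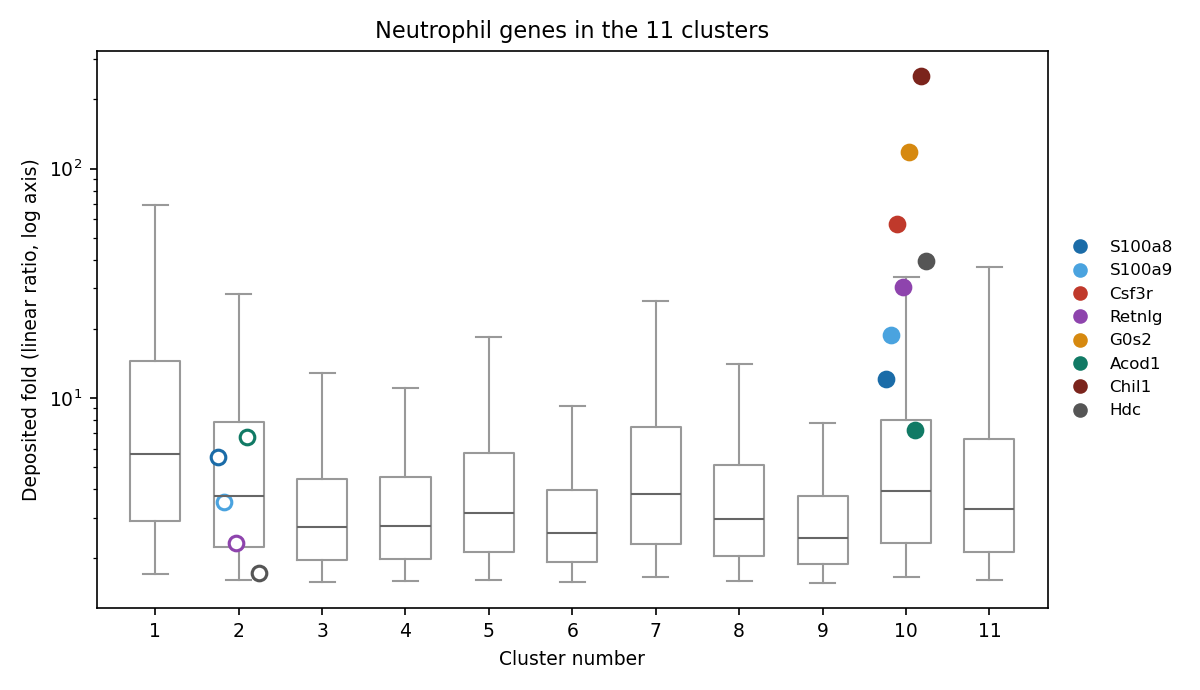
Deposited fold (linear ratio, log axis) of the 8 genes in each of the 11 clusters. Filled points are raised, open points are listed but not raised, and boxes show all genes listed in a cluster (median, quartiles, whiskers from the 5th to the 95th percentile). The filled points are all in cluster 10, from 7.22 for Acod1 to 253.0 for Chil1, and the open points are all in cluster 2.

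The secreted lectin Chil1 had the largest fold of the 8 in cluster 10, 253.0 per the authors' deposited table, and was listed in no other cluster. It stood at place 2 by fold among the 3466 genes listed there. G0s2, the lipase inhibitor, followed with 117.8 per the authors' deposited table, at place 19, and was likewise listed in cluster 10 alone. Csf3r, with 57.2 per the authors' deposited table, was also listed in that cluster only, at place 66. Including these 3, 242 of the 3466 genes listed in cluster 10 were listed nowhere else.

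Hdc had a fold of 39.4 in cluster 10 and 1.72 in cluster 2 per the authors' deposited table. Retnlg had 30.3 in cluster 10 and 2.32 in cluster 2 per the authors' deposited table. Of the calprotectin subunits, S100a9 had 18.9 in cluster 10 and 3.51 in cluster 2 per the authors' deposited table. S100a8, its partner, had 12.1 in cluster 10 and 5.54 in cluster 2 per the authors' deposited table. Acod1 had the smallest fold of the 8 in cluster 10, 7.22, close to its 6.75 in cluster 2 per the authors' deposited table. The gap between Acod1 in the 2 clusters has no error, and whether it differs from 0 cannot be said.

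Order by p was unlike order by fold. S100a9 was at place 3 by p and place 343 by fold in cluster 10, and Csf3r was at place 5 by p. Acod1, at place 944 by fold, came at place 12 by p, followed by S100a8 at 14, G0s2 at 15, Chil1 at 21, Hdc at 25 and Retnlg at 88. Of the first 25 genes of the cluster by p, 7 were among the 8, and of the first 25 by fold 2 were, Chil1 and G0s2. The table does not say how many cells carried each gene, so neither order can be given an error.

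**Figure D2:**
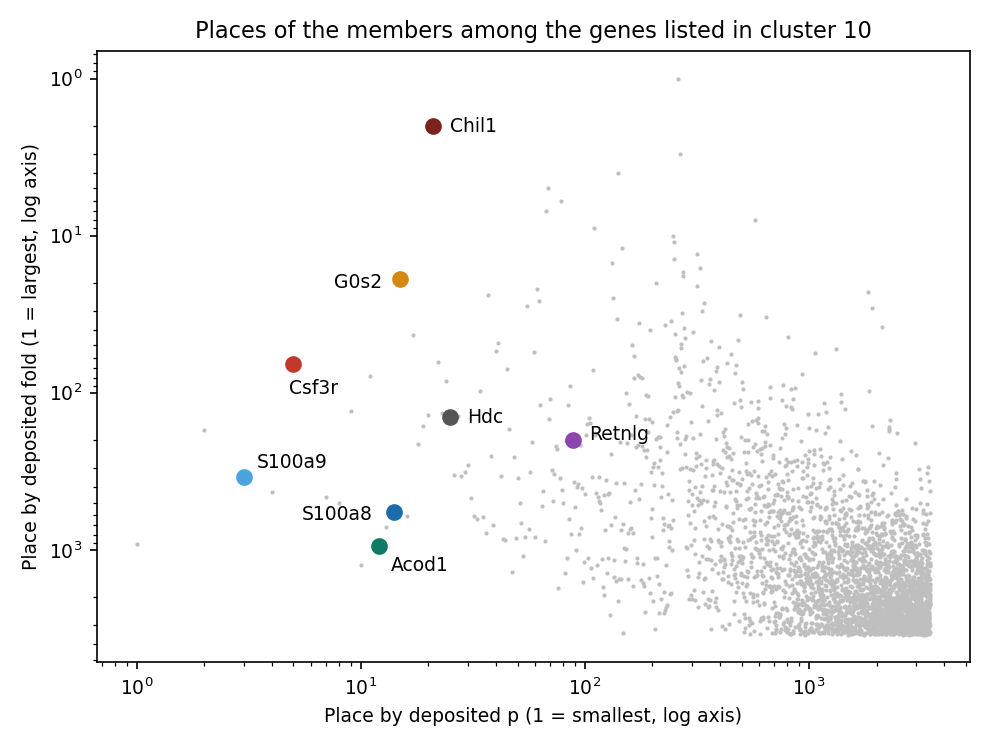
Place by deposited fold against place by deposited p for the 3466 genes listed in cluster 10 (both axes log, 1 at the top and left is the largest fold and the smallest p). The 8 genes, in color, all lie among the first 88 by p, while by fold they run from place 2 (Chil1) to place 944 (Acod1).

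Cluster 2, the cluster of globin genes, was the only other cluster that listed any of the 8. The 5 genes listed there, Acod1, S100a8, S100a9, Retnlg and Hdc, had folds of 1.72 to 6.75 per the authors' deposited table and deposited p of 0.224 to 0.706, so 0 of 8 were raised, where 2.89% of all named genes were raised. As to being listed, 9.07% of all named genes and 86 of the 897 genes raised in cluster 10 (9.59%) were listed in cluster 2, against 5 of the 8. The members were named with earlier results known, and this contrast has no test. The order of the 5 folds in cluster 2 was the exact reverse of that in cluster 10: Acod1 was first and Hdc last in cluster 2, and Hdc first and Acod1 last in cluster 10. The folds carry no error, and those of cluster 2 had deposited p of 0.224 or more, so this reversal is a description only. The fold in cluster 10 was 22.9 times that in cluster 2 for Hdc, 13.1 times for Retnlg, 5.40 times for S100a9, 2.18 times for S100a8 and 1.07 times for Acod1, per the authors' deposited table. Over the 258 genes listed in both clusters the median of this ratio was 1.09, and 137 had the larger fold in cluster 10. Folds of both clusters may share reference cells.

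Some other neutrophil genes were listed in cluster 2 in the same way, with a fold but a deposited p above 0.05. The gelatinase Mmp9 had 52.9, the receptor Trem1 14.1 and the protease inhibitor Stfa2l1 2.88 there per the authors' deposited table, and none of the 3 was raised. Others were raised: of 24 named neutrophil receptors and adhesion molecules, cluster 2 had 7 listed and 2 raised. These 2 were Ccr1 at 4.34 and Fcgr3 at 4.31 per the authors' deposited table. Csf2rb and Il1rn, of other lists, were raised in cluster 2 at 2.95 and 3.27 per the authors' deposited table. Of all named genes, 9.07% were listed and 2.89% raised in that cluster. Under cluster 10, Stfa2l1 had 19.0 and Trem1 2.51 per the authors' deposited table, both raised, while Mmp9 was not listed. Cluster 2 had all 5 named genes of a list of red-cell genes raised, with folds of 7.34 to 11.8 per the authors' deposited table. Macrophage genes in cluster 2 had 3 of 10 listed and 0 raised, at 1.62 to 1.92 per the authors' deposited table. The part of these cell types in the cluster 2 folds of the 5 genes was not tested.

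**Figure D3:**
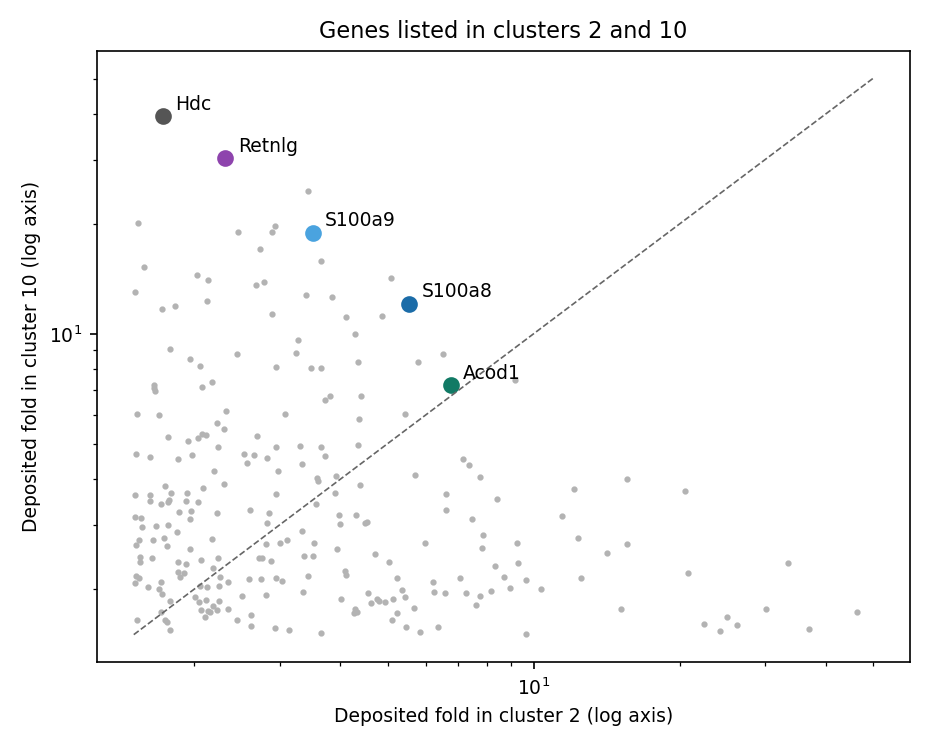
Deposited fold in cluster 10 against deposited fold in cluster 2 for the 258 genes listed in both (log axes, dashed line at equal folds). The 5 genes in color run from Hdc (1.72 and 39.4) at the upper left to Acod1 (6.75 and 7.22) near the line.

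Genes whose listing was most like that of a member were sought among the 81 genes listed in clusters 2 and 10 and in no other, by the mean absolute difference of log2 folds over the 2 clusters. Nearest to S100a9 was Stfa2l1, at a difference of 0.14, followed by Ankrd33b at 0.21 and Cpa6 at 0.26. S100a8 was nearest to Slc9c1 (0.18), Grid1 (0.29) and Gnb3 (0.30). Acod1 was nearest to the sulfotransferase Chst11 (0.17), Gnb3 (0.22) and the cytokine Il1b (0.24), which had 7.47 in cluster 10 and 9.15 in cluster 2 per the authors' deposited table. Retnlg and Hdc had no neighbour as near: Mxd1 was first for Retnlg at 0.38 and Trim60 for Hdc at 0.57. With 2 values per gene such likeness is a description only.

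Clusters 4 and 8, which each had all 10 macrophage markers raised, listed 0 of the 8 genes. Cluster 8 also had 6 of 7 dendritic cell markers raised, with Clec9a at 74.6 and Flt3 at 42.5 per the authors' deposited table, against 2 of 7 in cluster 4. Of the 897 genes raised in cluster 10, 333 (37.1%) were listed in cluster 4 and 321 (35.8%) in cluster 8, and 460 (51.3%) in at least 1 of them. In these clusters 31.5% and 26.4% of all named genes were listed. Acod1, known from activated macrophages, was listed in neither of them. Since the members were named as neutrophil genes with earlier results known, their absence from clusters 4 and 8 was not tested against the other genes of cluster 10.

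Members of the same families went to other clusters. Of 14 named S100 genes, 3 were listed in cluster 10, S100a9, S100a3 (14.3) and S100a8, all raised per the authors' deposited table. Beside this, 18.9% of all named genes were listed and 4.90% raised in cluster 10. S100a9 and S100a8 are members chosen with that cluster in view, so S100a3 alone of the 3 stands outside that choice. S100a4, a gene of motile and myeloid cells, had 5.31 in cluster 4 and 3.33 in cluster 8 per the authors' deposited table, both raised, and no value in cluster 10. S100a10, which pairs with annexin A2, was raised in clusters 4 and 11 at 2.91 and 2.77 per the authors' deposited table. S100a6, S100a14 and S100a16 were listed in epithelial-gene clusters 3 and 6, among others, at 1.53 to 3.23 per the authors' deposited table. S100a1, a calcium sensor of muscle, was raised in cluster 2 alone, at 6.62 per the authors' deposited table.

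Among receptors that S100A8 and S100A9 are known to bind, Tlr4 had a fold of 7.90 in cluster 10 per the authors' deposited table and was not raised there, and it was raised in clusters 4 and 8 at 2.38 and 3.64 per the authors' deposited table. Cd33 was raised in cluster 10 at 15.4 and in cluster 4 at 3.23 per the authors' deposited table. Ager, the receptor RAGE, was raised in cluster 3 alone, at 19.6 per the authors' deposited table. Cd36 was raised in clusters 4 and 8, at 11.4 and 6.68 per the authors' deposited table, and had no value in cluster 10.

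Relatives of Retnlg and Chil1 were raised in several clusters. Retnlg was raised in cluster 10, while Retnla, which marks alternatively activated macrophages, was raised in clusters 4 and 8 at 11.8 and 7.10 per the authors' deposited table and not listed in cluster 10. Chil3, the chitinase-like protein Ym1, was raised in clusters 4 and 8 at 4.57 and 10.6, and had 2.24 in cluster 10 per the authors' deposited table without being raised. Chil1 had no value in clusters 4 and 8. The chitinase-domain gene Chid1 was raised in clusters 6 and 11 at 2.34 and 2.43, and the lysosomal chitobiase Ctbs in cluster 8 at 13.4 per the authors' deposited table. Of 4 named receptors proposed for chitinase-like 1 (Il13ra2, Tmem219, Sdc1 and Cd44), 0 were listed in cluster 10. As 18.9% of all named genes were listed there, nothing is read from this count. Raised elsewhere were Tmem219 (cluster 4, 2.72), Sdc1 (cluster 7, 2.44), Il13ra2 (cluster 11, 2.82) and, just at the threshold, Cd44 (cluster 8), per the authors' deposited table.

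Histamine genes were raised beside Hdc in cluster 10. The receptor Hrh2 had a fold of 225.8 per the authors' deposited table, at place 4 of the cluster by fold, and was listed there alone. Hnmt, the enzyme that inactivates histamine, had 12.1 in cluster 10 per the authors' deposited table, raised, and 6.07 in cluster 11, not raised. Hrh1 was raised in cluster 6 at 3.48 per the authors' deposited table, and the vesicular transporter Slc18a2 in cluster 4 at 8.33 per the authors' deposited table. Of 8 named mast cell and basophil genes, 1 was listed in cluster 10, Hpgds at 11.7 per the authors' deposited table, and 0 were raised. Cluster 5, which held the mast cell proteases Tpsb2 at 403.5, Cpa3 at 177.7 and Mcpt4 at 10.5 per the authors' deposited table, all raised, did not list Hdc. Of the 2 named genes of enterochromaffin-like and endocrine cells, Slc18a2 and Tph1, 0 were listed in cluster 10. Beside these counts, 18.9% of all named genes were listed and 4.90% raised in cluster 10. With lists this small, the counts are not read as absence of a cell type.

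G0s2 and Acod1 were followed with the enzymes of their pathways. Adipose triglyceride lipase (Pnpla2), the target of G0s2, had 5.08 in cluster 10, and its coactivator Abhd5 had 3.38 per the authors' deposited table, neither raised. Hilpda, a second inhibitor of that lipase, was raised in cluster 10 at 9.93 per the authors' deposited table. Of the 10 named lipolysis and lipid-droplet genes, 5 were listed and 2 raised in cluster 10, G0s2 and Hilpda. Of all named genes, 18.9% were listed and 4.90% raised there. G0s2 is a member chosen with that cluster in view, so nothing is read from these counts. The droplet coat genes Plin1 and Plin2 were raised in cluster 4, at 10.1 and 2.70 per the authors' deposited table. Of 13 enzymes and carriers of the tricarboxylic acid cycle and itaconate, 2 were listed and raised in cluster 10, Acod1 and the succinate dehydrogenase subunit Sdha at 2.09 per the authors' deposited table. Acod1 is likewise a member and counts there by choice.

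**Figure D4:**
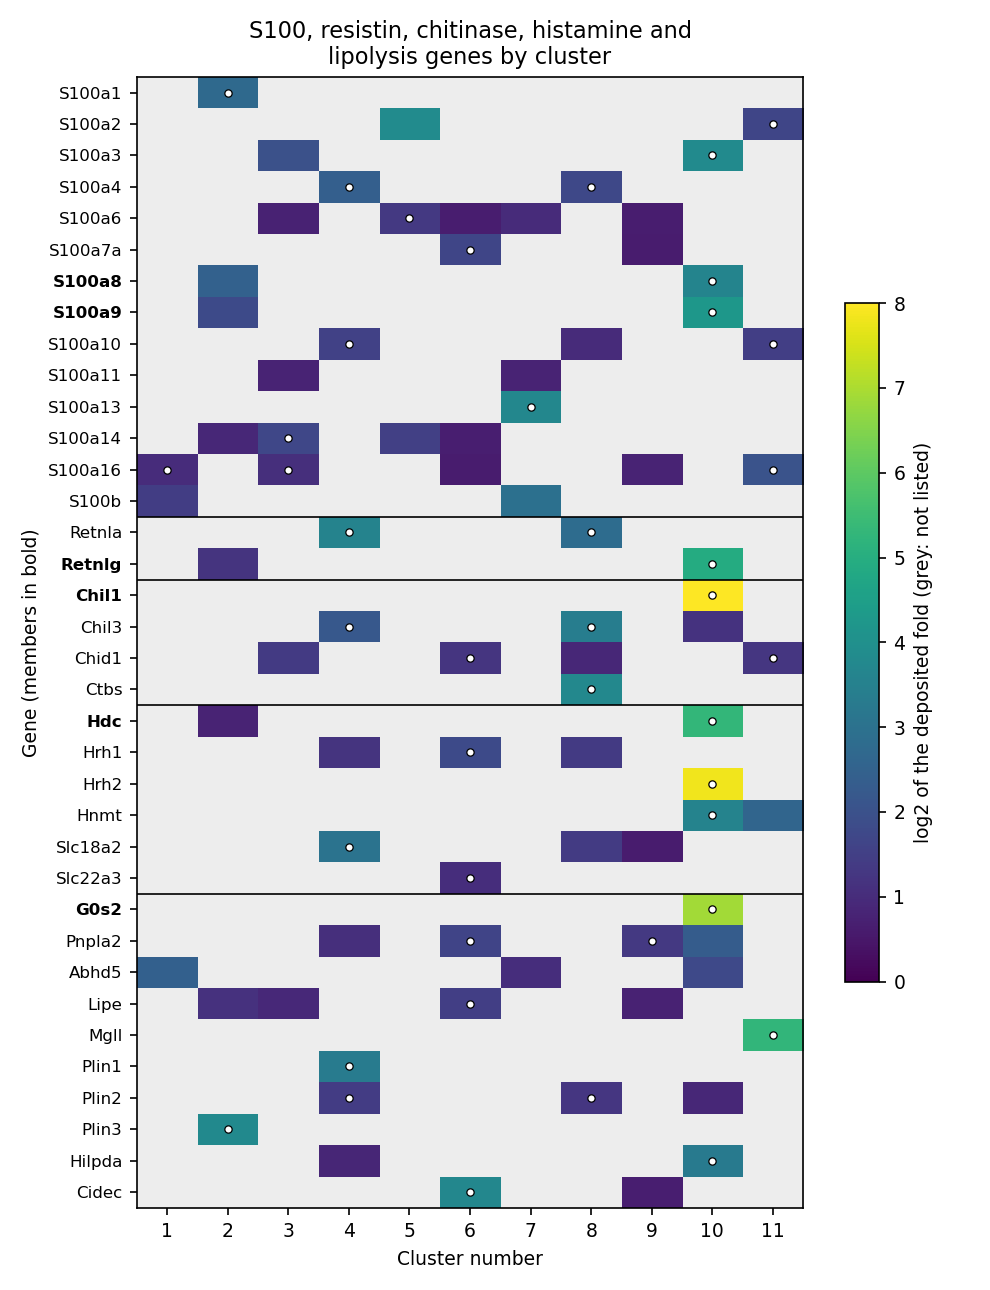
Log2 of the deposited fold for the named S100, resistin, chitinase, histamine, and lipolysis genes (rows, members in bold, families divided by lines) in the 11 clusters (columns). Grey cells are not listed and white dots mark raised genes. Apart from the members, S100a3, Hrh2, Hnmt and Hilpda are raised in cluster 10, while Retnla, Chil3, S100a4 and Plin2 are raised in cluster 4 and, with the same dots, in cluster 8.

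Csf3r was described with its signalling partners and ligand. The ligand gene Csf3 was listed in clusters 3 and 5, at 4.93 and 2.28 per the authors' deposited table, and raised in neither. In cluster 10, 18.9% of all named genes were listed and 4.90% raised. Of 13 named genes of G-CSF and related cytokine signalling, 8 were listed and 6 raised there. These were Csf1 at 34.0, the feedback inhibitors Cish at 12.1 and Socs3 at 6.99, and the receptor chains Csf2rb at 4.90, Csf2ra at 4.49 and Csf1r at 3.30 per the authors' deposited table. The same list had 7 raised in cluster 4 and 3 in cluster 8, where 18.6% and 6.36% of all named genes were raised. Csf2rb, Csf2ra and Csf1r were raised in both of these clusters, at 2.63 to 5.12 per the authors' deposited table, whereas Csf3r had no value there.

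A list of receptors and adhesion molecules of neutrophils, which holds chemoattractant, pattern-recognition and Fc receptors, had 21 of 24 named genes listed and 18 raised in cluster 10. The 5 raised genes of largest fold were the chemokine receptor Cxcr2 at 53.0, the selectin ligand Selplg at 20.4, the decoy receptor Il1r2 at 13.9, the platelet-activating factor receptor Ptafr at 13.8 and Pilra at 11.1 per the authors' deposited table. Cxcr2 was listed in no other cluster. The same list had 15 raised in cluster 4 and 12 in cluster 8, led by Tlr2 at 18.0 in cluster 4 and Itgal at 11.4 in cluster 8 per the authors' deposited table. As a background, 4.90% of all named genes were raised in cluster 10, 18.6% in cluster 4 and 6.36% in cluster 8.

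Neutrophil-attracting chemokines had 5 of 11 listed and 4 raised in cluster 10, Cxcl3 at 69.8, Ccl4 at 39.7, Ccl3 at 33.9 and Cxcl2 at 14.7 per the authors' deposited table. Of all named genes, 18.9% were listed and 4.90% raised in cluster 10. The same list had 5 raised in cluster 4 and 4 in cluster 8, where 18.6% and 6.36% of all named genes were raised. Those of cluster 4 were Pf4 at 17.9, Cxcl1 at 16.4, Ccl6 at 8.56, Ccl9 at 8.39 and Cxcl2 at 2.21 per the authors' deposited table. Pf4, Cxcl1, Ccl6 and Ccl9 were raised in cluster 8 too, at 2.90 to 6.67 per the authors' deposited table. Cxcl5 and Cxcl12 were raised in cluster 11 at 136.9 and 315.3, and Ppbp in cluster 9 at 23.3, per the authors' deposited table. Inflammatory effectors had 10 of 12 listed and 8 raised in cluster 10. The 5 raised genes of largest fold were Slfn4 at 39.9, the inflammasome sensor Nlrp3 at 20.2, Tnf at 17.3, the interleukin-1 antagonist Il1rn at 9.60 and Nfkbiz at 8.03 per the authors' deposited table. Il1a, at 14.4 per the authors' deposited table, was listed but not raised. Genes described in tumor-associated neutrophils had 5 of 7 listed and 4 raised, Arg2 at 30.2, Cd274 (PD-L1) at 19.1, Olr1 at 9.82 and Cd84 at 3.45 per the authors' deposited table.

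Granule and surface genes had 4 of 13 named genes listed and 2 raised in cluster 10, where 18.9% of all named genes were listed and 4.90% raised. The raised ones were Stfa2l1 and Wfdc17, at 19.0 and 4.46 per the authors' deposited table. The collagenase Mmp8 had 3.39 there and was not raised, and it was raised in clusters 4 and 8 at 2.18 and 10.8 per the authors' deposited table. Ngp, a secondary granule protein, was raised in cluster 8 alone, at 11.7 per the authors' deposited table. Lactoferrin (Ltf) was raised in clusters 5 and 6 at 5.75 and 2.68 and lipocalin-2 (Lcn2) in cluster 11 at 15.4 per the authors' deposited table. Neither had a value in cluster 10. The phagocyte oxidase had 5 of 6 subunits listed and 2 raised in cluster 10, with Cybb at 4.61, while all 6 were raised in clusters 4 and 8, at 2.61 to 7.12 per the authors' deposited table. Of 7 named granulocyte transcription factors, 3 were raised in cluster 10, Cebpb at 8.72, PU.1 (Spi1) at 8.06 and Klf2 at 5.95 per the authors' deposited table. The same list had 6 raised in cluster 4 and 4 in cluster 8, where 18.6% and 6.36% of all named genes were raised. Cebpb, Spi1 and Klf2 were among them in both clusters, at 2.52 to 5.83 per the authors' deposited table.

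Over the 142 named genes of the 16 pathway lists that are not among the 8, 53 (37.3%) were raised in cluster 10, where 4.90% of all named genes were. Cluster 4 had 61 (43.0%) beside 18.6% of all genes, cluster 8 had 44 (31.0%) beside 6.36%, and cluster 2 had 10 (7.04%) beside 2.89%. The lists too were chosen with earlier results of these data known, so these shares are descriptions and carry no test. Of the 8 members 0 were listed in clusters 4 and 8, which the choice of the members may have set, and no test was made of this contrast.

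**Figure D5:**
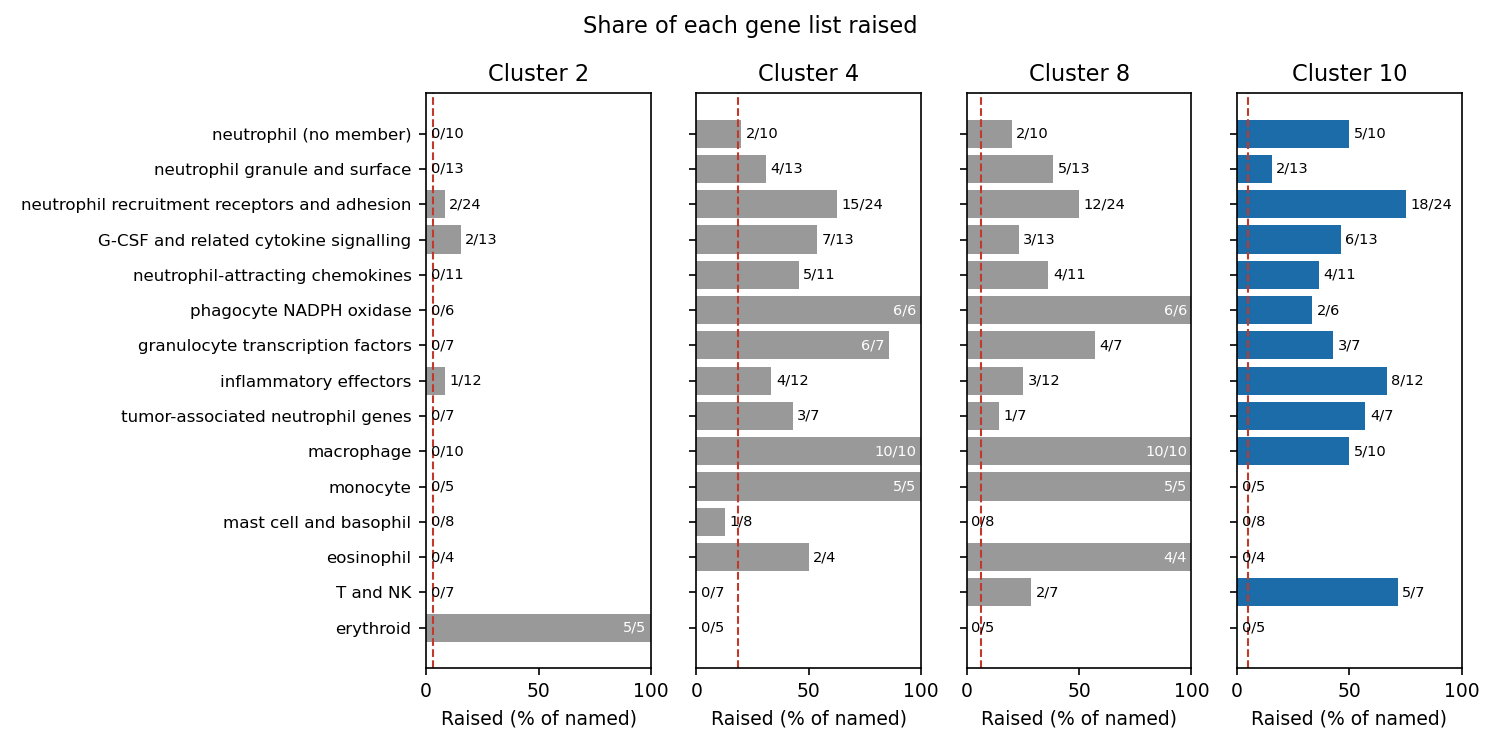
Percent of the named genes of each list that were raised in clusters 2, 4, 8 and 10 (bars, with the count of raised over named genes). The dashed red line is the percent of all 18319 genes raised in that cluster. In cluster 10 the recruitment receptors stand at 18 of 24 and the granule genes at 2 of 13. Among lists of other cell types, T and NK stand at 5 of 7 and macrophage at 5 of 10. The monocyte, mast cell and basophil, eosinophil and erythroid lists stand at 0.

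The label of the set was checked against neutrophil markers outside it, also chosen with earlier results of these data known. Of 10 named markers, 6 were listed and 5 raised in cluster 10, among them Cxcr2, Stfa2l1, Fpr1 and Trem1, at 2.51 to 53.0 per the authors' deposited table. Beside this and the counts below, 18.9% of all named genes were listed and 4.90% raised in cluster 10. Cxcr2 was the marker listed in that cluster alone, and Ltf, Lcn2, Ngp and Mmp9 had no value there. Genes of other cell types were also raised in cluster 10, and their part in the folds of the 8 genes was not tested. Macrophage markers had 9 of 10 listed and 5 raised, at 1.76 to 7.84, and T and NK markers 6 of 7 listed and 5 raised, at 2.23 to 110.7 per the authors' deposited table. The raised T and NK markers were Cd4 at 110.7, Cd3e at 25.9, Gzma at 21.5, Ncr1 at 17.4 and Nkg7 at 2.23 per the authors' deposited table. Cd4 stood at place 22 of the cluster by fold. The hosts lack most T cells, and which cells carried these genes was not tested. Vwf and Pecam1 of 4 endothelial markers were raised at 21.3 and 3.17, and Itgax and H2-Ab1 of 7 dendritic markers at 5.94 and 3.95 per the authors' deposited table. Monocyte markers had 2 of 5 listed and 0 raised, Ly6c2 at 2.28 and Chil3 at 2.24 per the authors' deposited table. Of 4 named eosinophil, 8 epithelial, 7 fibroblast and 5 erythroid markers, 0 were listed in cluster 10. No B cell marker of the list used had a value in any cluster.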

How the data were processed

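Cells of 2 tumors, 1 library each of a cystic and a tubular adenocarcinoma, were assigned to groups by the tumor type in their titles. Per the submitters' processing notes the build was mm10, with STAR 2.7.3a, Partek and DESeq2 3.5, whose roles are not stated. The sources used here do not give cell filters, doublet treatment or the clustering method. The authors deposited 1 table of their own comparisons, which holds, per the file headers, a fold (a linear ratio) and its p-value for each gene of a cluster. The table has 0 columns of per-sample values, so no test was made.

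Members and lists were chosen with earlier results of these data known. A gene was raised at a fold of at least 2 and a p of at most 0.05. Named were the 8 members, up to 5 raised genes of largest fold per list in cluster 10, and the 3 genes nearest to each member listed in at least 2 clusters, without predicted genes. Other list genes, and values in other clusters, were chosen after their values were seen. Some genes that the rule takes are not reported by name. Motifs were searched in RefSeq promoters (GRCm38.p6), which matched all 8 members. Parsing and calls were tested on simulated data. Python 3.11.15, pandas 2.3.3 and numpy 2.4.6 were used. Alternatives were folds of 1.5 or 3, a p of 0.01 and no p threshold.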

Additional observations from a re-analysis of the deposited data

How the results depend on the processing

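The count of the 8 neutrophil genes raised stayed at 8 in cluster 10 under fold thresholds of 1.5 and 3, a deposited p of at most 0.01 and no threshold on p. The count stayed at 0 in the clusters other than 2 and 10, as it must where none of the 8 is listed. In cluster 2 it went from 0 to 4 with no p threshold (Acod1, S100a8, S100a9 and Retnlg), because that setting removes the p that kept them out. Without a p threshold, the other pathway genes raised in cluster 2 went from 10 to 20, and all named genes raised went from 529 to 1353 in cluster 2, from 1166 to 3719 in cluster 8 and from 897 to 2907 in cluster 10. A fold of at least 3 left 352 raised genes in cluster 2 and 2220 of 3402 in cluster 4, with 40 of 61 pathway genes there. A p of at most 0.01 left 729 raised genes in cluster 8. These moves follow from the thresholds themselves. Of 116 pairs of a list and cluster 2, 4, 8 or 10, the count of raised genes stayed within 1.5 times in 107 at a fold of 1.5, 100 at a fold of 3, 106 at a p of 0.01 and 90 without p. Pairs with 0 raised genes at the main setting are among these. They must stay at 0 at a fold of 3 or a p of 0.01, so the 100 and the 106 are no measure of stability for them. Places by fold and by p differed for every member. Genes raised in cluster 10 and in no other cluster numbered 507, against 242 listed there and nowhere else. No gene stood more than once in a cluster, so the mean of repeated values could not be tried. No replicate could be left out. No paired analysis was possible because each tumor type has 1 library and the table has no per-sample columns. Depth is unknown, so no fold carries a counting error.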
